A study of Homo sapiens with 3 samples.

Results

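Mimics of hsa-miR-195 and hsa-miR-497, a pair of miRNAs with the same seed, were compared through the miRNAs that each left in the Argonaute2 (Ago2) fraction of one cell line. The comparison set the array of cells given the miR-497 mimic against the array of cells given the miR-195 mimic, 2 of the 3 arrays of the series, with the array of non-treated cells as the background. Both arrays were taken by the sample labels, and no measured value chose them. Each array listed 851 human miRNA names. Of these, 847 were endogenous, meaning neither strand of either mimic, and 117 of the 847 were well above background on both mimic arrays. A miRNA counted as above background when the scanner software had marked over 50% of the spots of at least 1 of its probes so.

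The cells were Hep G2, an established human liver cancer line. The miR-195 group and the miR-497 group each received 5 nM of the respective double-stranded mimic with the lipid reagent Lipofectamine RNAiMAX, and the non-treated group received no mimic. Cells of each transfected group are called miR-195 cells or miR-497 cells, each standing for 1 array. Ago2 was immunoprecipitated after 24 hours, and 10 ng of the recovered RNA was labelled with Cy3 for each array. Each group held 1 array, so the comparison had no replicate and no test, and 2-fold was taken as the size worth counting. The study's methods state in general that microarray samples were measured in duplicate, and further arrays were not analysed here. No array of cells transfected with an unrelated mimic was analysed here, so against non-treated cells the effects of transfection and of a mimic cannot be told apart.

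Ago2 is the protein of the RNA-induced silencing complex that holds one strand of a miRNA duplex, the guide, and discards the other, the passenger, which arrays of this age mark with an asterisk. The guide finds mRNAs mainly through its seed, the short stretch behind its first base, so miRNAs with one seed can repress overlapping sets of targets. hsa-miR-195 and hsa-miR-497 belong to the miR-15/miR-107 group, whose members repress cyclins and other drivers of the cell cycle. They are processed from one primary transcript on chromosome 17.

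The mature sequences below are those of RefSeq (GRCh38.p14), which held 397 of the 851 human names of the array. The mimic strands are shown first, since the comparison rests on how far their probes can tell them apart, with the seed (bases 2 to 8) in capitals.
hsa-miR-195: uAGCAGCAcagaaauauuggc
hsa-miR-497: cAGCAGCAcacugugguuugu
hsa-miR-195*: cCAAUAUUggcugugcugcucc
hsa-miR-497*: cAAACCACacugugguguuaga

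The guides had the same base at 12 of 21 positions, counted from 1 at the 5′ end. Those 12 included positions 2 to 10, and the 9 differences from miR-195 to miR-497 were U1C, G11C, A12U, A13G, A14U, U15G, A16G, G19U and C21U. Relatives from the miR-15/miR-107 group that were measured on both mimic arrays are shown next, because they carry the same or a shifted seed.
hsa-miR-16: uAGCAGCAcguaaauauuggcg
hsa-miR-15a: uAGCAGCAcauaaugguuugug
hsa-miR-15b: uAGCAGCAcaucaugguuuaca
hsa-miR-103: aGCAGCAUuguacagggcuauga
hsa-miR-107: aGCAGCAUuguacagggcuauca

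hsa-miR-16 matched hsa-miR-195 at 19 of 21 positions, and hsa-miR-15a matched hsa-miR-497 at 17 of 21. Of the other sequences closest to a guide, hsa-miR-634 (13 of 21) and hsa-miR-503 (12) for hsa-miR-195, and hsa-miR-424 (14), hsa-miR-127-5p (12) and hsa-miR-556-5p (12) for hsa-miR-497, were not above background on any array. hsa-miR-103 and hsa-miR-107 carry the same letters shifted by one base, so that their seed reads GCAGCAU in place of AGCAGCA.

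The arrays differed in overall brightness, which bears on every value below. In miR-497 cells the summed signal of the endogenous names was 45.9% of that in miR-195 cells (98311 against 214394 intensity units), and all 117 endogenous miRNAs measured on both were dimmer there, with a median of 34.4%. The 4 control probes named dmr, taken here as spike-ins although the sources used here do not state their role, differed by -0.11 to 0.09 on the log2 scale between the same arrays, with a mean of -0.01. These controls did not share the brightness gap, whose cause was not tested. Differences between arrays are given on the log2 scale as miR-497 cells minus miR-195 cells, after each array was divided by its 75th percentile over the 183 probes above background on all 3 arrays (778 units in miR-195 cells and 263 in miR-497 cells). The SD beside a difference is the spread of the single spots printed on an array. It is not the error of their mean, which is smaller, and it holds no variation between cultures or immunoprecipitates.

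Each guide stood far above its level on the other mimic's array. hsa-miR-195 had a signal of 38522 ± 2126 intensity units (spot SD) on its own array, against 32.8 ± 7.78 in miR-497 cells and 45.3 ± 4.95 in non-treated cells. The scaled log2 difference was -8.63 ± 0.35, or 397-fold lower in miR-497 cells. hsa-miR-497 had a signal of 7903 ± 772 units on its own array, against 45.4 ± 7.10 in miR-195 cells, and it was not above background in non-treated cells (11.8 units). Its scaled difference was 9.01 ± 0.27, or 515-fold higher in miR-497 cells. Under the 17 other ways of processing these values, hsa-miR-195 stayed at least 2-fold lower and hsa-miR-497 at least 2-fold higher in miR-497 cells in 17 of 17. In the one that asked every spot of a probe to be above background, the hsa-miR-195 difference was a bound.

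The residual signal of a guide on the array of the other mimic came from 1 of its 2 probes. For hsa-miR-497 the brighter probe read 6877 ± 768 units on its own array and 42.7 in miR-195 cells, which is 0.621% of the former, while the dimmer probe read 1025 ± 83.7 and 2.69, the latter not above background. The same brighter probe read 10.4 units in non-treated cells, so it was brighter where the miR-195 mimic was present, and the scaled signal of hsa-miR-497 was there at least 2.03 higher on the log2 scale than in non-treated cells. Whether this was cross-hybridisation of the related mimic was not tested. For hsa-miR-195 the probes read 22139 ± 1193 and 16383 ± 1760 units on their own array. In miR-497 cells the brighter one read 25.8 units, or 0.116% of its value, and in non-treated cells 33.5, while the other was not above background in either (7.02 and 11.8 units). The brighter probe was thus dimmer under the miR-497 mimic than in non-treated cells as measured, although on that dim array the summed signal of hsa-miR-195 was 1.19 higher on the log2 scale after scaling.

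**Figure D1:**
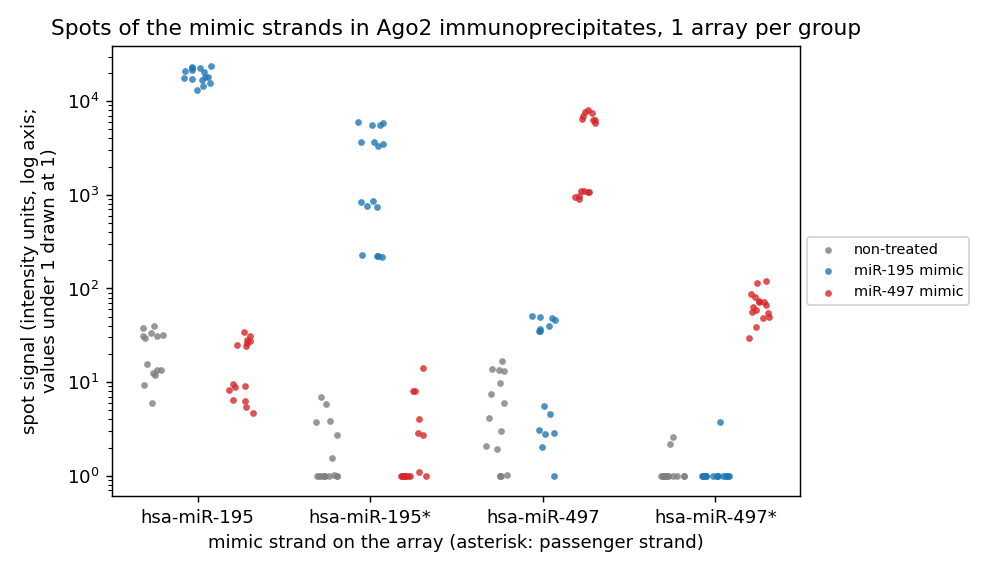
Each point is 1 spot of a mimic strand, with its signal in intensity units on a log axis and values under 1 drawn at 1. Spots of each guide and passenger are bright on the array of their own mimic, where the 4 levels of hsa-miR-195* and the 2 levels of hsa-miR-497 are separate probes for one RNA.

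The passenger strand of each mimic was found on the array of that mimic and on no other. hsa-miR-195* had a signal of 10321 ± 221 units in miR-195 cells and was not above background in miR-497 cells (5.49 units) or non-treated cells (4.38 units), so it was at least 183-fold lower in miR-497 cells. hsa-miR-497* had a signal of 272 ± 28.9 units in miR-497 cells and was not above background in miR-195 cells (-10.5 units), so it was at least 33.9-fold higher in miR-497 cells. On the log2 scale these bounds were -7.51 and 5.08. Over the alternatives they ranged from -9.08 without scaling to -4.01 with normexp, a model-based background correction that here added an offset of 50 to each spot, and from 5.21 with median scaling to 2.44 with normexp. That of hsa-miR-195* was -6.75 and that of hsa-miR-497* 3.76 with the brightest probe alone, and the latter was 3.52 without scaling. For each passenger all 4 probes were above background where its mimic was given. Those of hsa-miR-195* read 221.9, 796, 3559 and 5744 units, and those of hsa-miR-497* read 65.9, 48.3, 56.7 and 101. Neither passenger shares the seed of the guides.

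As a share of all human signal on its own array, the miR-195 mimic took more than the miR-497 mimic. The hsa-miR-195 guide held 14.6% ± 0.716 (spot SD) of the human signal in miR-195 cells, and the hsa-miR-497 guide held 7.42% ± 0.724 in miR-497 cells. The passengers held 3.92% ± 0.101 and 0.255% ± 0.0287. With both strands together the mimics held 18.6% ± 0.704 and 7.67% ± 0.726. The order of the guides was the same under 7 of 7 alternative ways of computing the shares, and so was the order of the passengers.

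The size of the gap between the guides depended on the quantity compared. The raw signals differed 4.87-fold, the multiples of the array's own 75th percentile differed 1.65-fold (49.5 against 30.03), and the shares differed 1.97-fold. These values come from different probes, and probes of one RNA were themselves unequally bright. The brighter probe exceeded the dimmer 6.71-fold for hsa-miR-497 and 1.35-fold for hsa-miR-195, and the brightest exceeded the dimmest 25.9-fold for hsa-miR-195*. Among 98 endogenous miRNAs with at least 2 probes above background in miR-195 cells, this ratio had a median of 3.85 and a 90th percentile of 10.2. A share of signal is therefore not a share of molecules, and the brightness of the probes and the amount of each mimic in Ago2 cannot be told apart.

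Grouped by seed, the arrays differed in how much of the human signal came from names with the seed AGCAGCA. The 6 names with that seed (hsa-miR-15a, hsa-miR-15b, hsa-miR-16, hsa-miR-195, hsa-miR-424 and hsa-miR-497) held 4.68% of the human signal in non-treated cells, 18.8% in miR-195 cells and 11.2% in miR-497 cells. The endogenous members alone held 4.66%, 5.14% and 4.06% of the endogenous signal on the same arrays. The rise over non-treated cells thus came from the mimic guides, while the endogenous members lay within 1 percentage point of the non-treated share.

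Endogenous miRNAs of the miR-15/miR-107 group differed little between the mimic arrays. hsa-miR-16, the brightest of them and the closest relative of hsa-miR-195, read 6387 units in miR-195 cells, 2278 in miR-497 cells and 5713 in non-treated cells, with a scaled difference of 0.08 ± 0.17. hsa-miR-15a, the closest relative of hsa-miR-497, read 1280, 436 and 1433 units in the same order, with a difference of 0.01 ± 0.17. Both differences were smaller than the spot SD. hsa-miR-15b (3349, 1271 and 3937 units) had the highest difference of the group, 0.17 ± 0.09, and hsa-miR-103 (2616, 829 and 2796 units) the lowest, -0.09 ± 0.14. hsa-miR-107 differed by 0.13 ± 0.15. Thus 5 of 8 endogenous members of the group were measured on both arrays, and their median was 0.08 against 0.02 for all 117. In the group 0 of 5 were at least 2-fold higher or lower, where over all 117 these shares were 1.71% and 0%, so the count says nothing particular to the group. The median of the group lay below that of all 117 with normexp (by 0.42) and with the mean of log2 over probes. It lay above in the other alternatives, though those that only rescale an array cannot change this order. The remaining members, hsa-miR-424, hsa-miR-646 and hsa-miR-503, were not above background on either array.

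Most endogenous miRNAs differed by less than 2-fold between the mimics after scaling. Of the 117 measured on both arrays, 2 were at least 2-fold higher in miR-497 cells, or 1.71%, and 0 were at least 2-fold lower, or 0%. A further 115 differed by less than 2-fold, and 114 (97.4%) by less than 1.5-fold. The count of decreases is limited for dim miRNAs. A 2-fold decrease could take them below background on the dimmer array and out of the 117. Of the scaled differences 68 were above 0 and 49 below. They had a median of 0.02, an SD of 0.26 and 5th and 95th percentiles of -0.34 and 0.41, and 20 of them exceeded 2 spot SDs. The log2 signals of the 117 correlated with r = 0.993 and rho = 0.989 between the mimic arrays, a correlation across miRNAs, which are not independent and share 1 array on each side. These differences depend on the scaling factor, since without scaling 114 of the 117 were at least 2-fold lower in miR-497 cells.

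**Figure D2:**
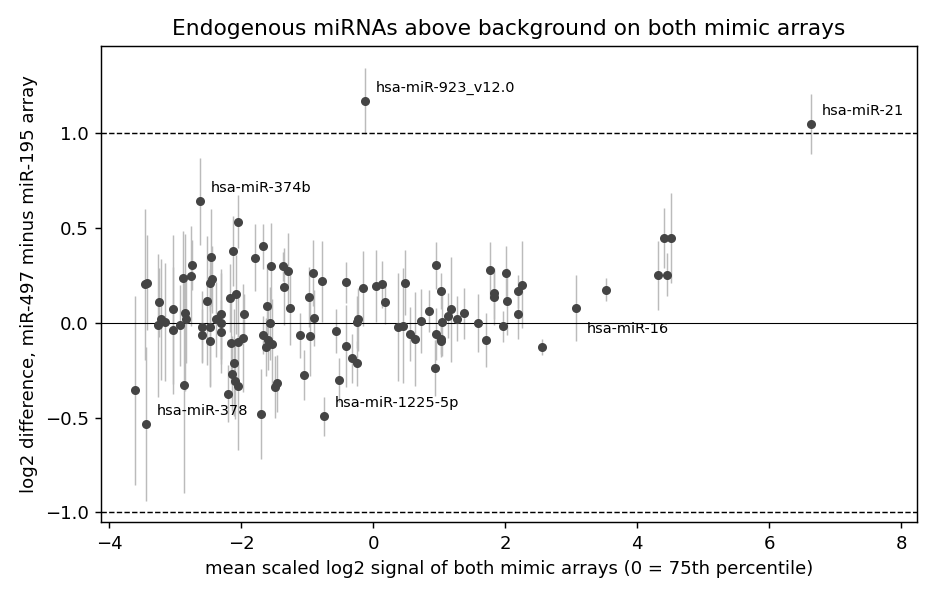
Each point is 1 of the 117 endogenous miRNAs, with the mean scaled log2 signal of both mimic arrays on the x axis, the scaled log2 difference (miR-497 minus miR-195 cells) on the y axis and bars for the spot SD. Only hsa-miR-21 (1.05) and hsa-miR-923_v12.0 (1.17) lie past the dashed 2-fold lines, and without scaling both were below 0.

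hsa-miR-21, which is abundant in many tumours and represses tumour suppressors such as PDCD4, gave the brightest endogenous signal on each array. It read 53635 ± 2735 units in miR-195 cells, 37516 ± 3598 in miR-497 cells and 71328 ± 5548 in non-treated cells. It was lower on both mimic arrays than in non-treated cells in raw signal, but from miR-195 to miR-497 cells it lost a smaller fraction of its brightness than every other measured endogenous miRNA except hsa-miR-923_v12.0. Its scaled difference was 1.05 ± 0.16, which was 1.03 above the median of the 117, while its unscaled difference was -0.52. With quantile normalization it was 0.08 and with normexp 0.40 above the median. Its probes differed in size and not in direction, with 1.18 for the brighter and 0.63 for the dimmer. As a share of the endogenous signal hsa-miR-21 held 25.02% in miR-195 cells, 38.2% in miR-497 cells and 29.98% in non-treated cells, so the mimic arrays lay on either side of the non-treated one. The share was higher in miR-497 cells in 7 of 7 alternatives, although with normexp the shares were 14.9% and 15.6%.

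hsa-miR-923_v12.0, an entry since withdrawn from the miRNA registry as a fragment of ribosomal RNA, read 476 ± 34.3 units in miR-195 cells, 363 ± 35.2 in miR-497 cells and 287 ± 22.2 in non-treated cells. Its scaled difference was 1.17 ± 0.17, with 1.11 and 1.18 for its probes. It was the 1 measured name of 9 on the array that overlap tRNA, rRNA or other small RNAs. hsa-miR-720, a fragment of a tRNA, was above background in miR-497 cells (29.9 units) and in non-treated cells (17.96 units) and not in miR-195 cells (20.9 units). After scaling its difference was at least 1.90, although its unscaled signals on the mimic arrays lay within 10 units of each other.

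The next largest increases were under 2-fold. hsa-miR-374b differed by 0.64 ± 0.23 (101 units in miR-195 cells, 53.3 in miR-497 cells and 187 in non-treated cells) and hsa-miR-29b-1* by 0.53 ± 0.14 (157, 76.8 and 251 units). hsa-miR-363, of the miR-106a-363 cluster, differed by 0.45 ± 0.16 (14146, 6521 and 17456 units). These 3 were also dimmer in miR-195 cells than in non-treated cells. For hsa-miR-29b-1*, 3 of 4 probes were above background in miR-195 cells and 1 of 4 in miR-497 cells.

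The largest decreases were all under 1.5-fold. hsa-miR-378, from an intron of PPARGC1B, differed by -0.53 ± 0.40 (86.3 units in miR-195 cells, 20.2 in miR-497 cells and 80.9 in non-treated cells), and only 1 of its 2 probes was above background in miR-497 cells. hsa-miR-1225-5p differed by -0.49 ± 0.10, with 550, 132 and 201 units, and its scaled log2 signal in miR-195 cells was 1.54 above that in non-treated cells and in miR-497 cells 1.05 above it. hsa-miR-17*, the passenger of hsa-miR-17, differed by -0.48 ± 0.24, hsa-miR-486-5p, a miRNA of red blood cells, by -0.37 ± 0.15, and hsa-miR-193a-3p by -0.36 ± 0.50. Those of hsa-miR-378 and hsa-miR-193a-3p were within 2 spot SDs of 0. For hsa-miR-17*, hsa-miR-486-5p and hsa-miR-193a-3p too, only 1 of 2 probes was above background in miR-497 cells. hsa-miR-193a-3p lay there at 19.1 units, the lowest signal above background on that array.

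Shares of the endogenous signal showed the weight of hsa-miR-21 in the comparison. In miR-497 cells 6 of the 117 held a larger share than in miR-195 cells, and 111 a smaller one. The 6 were hsa-miR-21, hsa-miR-923_v12.0, hsa-miR-363, hsa-miR-19b, hsa-miR-374b and hsa-miR-29b-1*. With hsa-miR-21 left out of the sum, 36 of the other 116 held a larger share and 80 a smaller one. The distance between the compositions, the summed absolute share differences divided by 2, was 14.6% between the mimic arrays, and hsa-miR-21 gave 45.1% of it. The same distance was 10.2% from miR-497 cells to non-treated cells and 7.78% from miR-195 cells to them. Without hsa-miR-21 the values were 8.37%, 8.70% and 6.84%, and the mimic arrays were then no farther apart than the miR-497 and non-treated arrays were. The log2 signals of the 117 gave another order, with the mimic arrays as the most alike pair. Between them r was 0.993 and rho 0.989. Against non-treated cells r was 0.987 and rho 0.980 for miR-497 cells, and r was 0.987 and rho 0.979 for miR-195 cells.

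**Figure D3:**
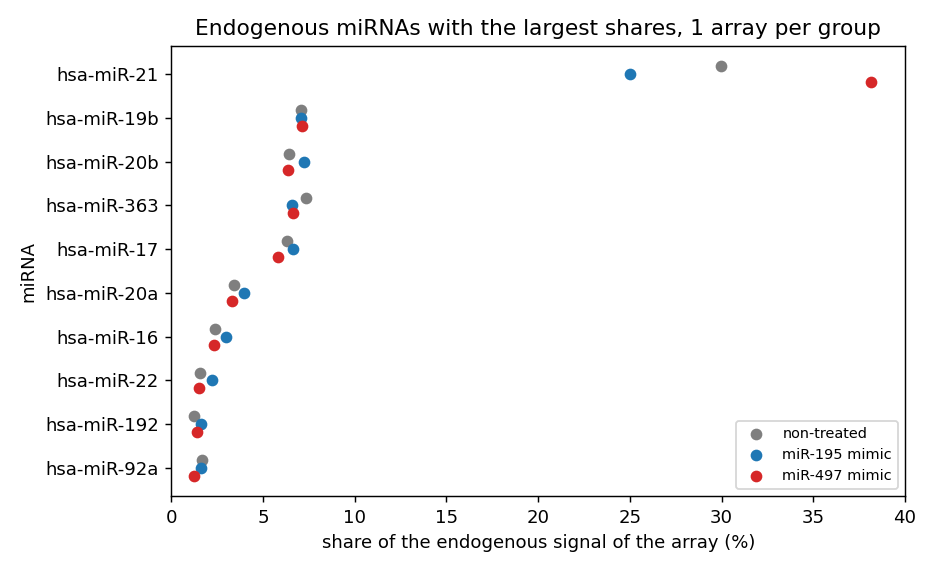
Points give the share of the endogenous signal, in percent, of the 10 endogenous miRNAs with the largest mean share on the mimic arrays, 1 point per array. hsa-miR-21 spans 25.02% to 38.2%, and each of the other 9 spans less than 1 percentage point between the arrays.

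Of the miRNAs behind hsa-miR-21, hsa-miR-19b and hsa-miR-363 kept similar shares, and the others named here held smaller ones in miR-497 cells. hsa-miR-19b held 7.08% in miR-195 cells and 7.11% in miR-497 cells, and hsa-miR-363 held 6.60% and 6.63%. hsa-miR-20b held 7.24% and 6.37%, hsa-miR-17 held 6.62% and 5.81%, and hsa-miR-20a held 3.96% and 3.29%. Most of these belong to the miR-17/miR-92a cluster and its relatives, which promote proliferation downstream of MYC. hsa-miR-16 held 2.98% and 2.32%, and hsa-miR-22 held 2.25% and 1.52%. The 5 brightest endogenous miRNAs together held 52.6% in miR-195 cells and 64.1% in miR-497 cells.

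The lists of related miRNAs gave medians from -0.21 to 0.21 on the log2 scale wherever at least 2 members were measured. Another scaling factor shifts every difference by one amount, so each list is set against the median of all 117. Alternatives that only rescale an array leave that relative value unchanged by construction. The deposited table of log2 values holds the scanner software's own totals per miRNA, so those totals and the table are not separate alternatives here. All 6 members of the miR-17/miR-92a cluster were above 0, where 68 of all 117 were. They ran from 0.05 for hsa-miR-92a to 0.45 for hsa-miR-19b, with a median of 0.21 against 0.02 over all 117. Members hsa-miR-17, hsa-miR-19a, hsa-miR-19b, hsa-miR-20a and hsa-miR-92a were among the 29 brightest of the 117, whose median was 0.11. Whether the cluster differed from other miRNAs of its brightness was not tested. The probes of hsa-miR-17 disagreed in sign, from -0.38 to 0.33. Those of hsa-miR-19b ran from 0.08 to 0.48, and those of hsa-miR-19a, hsa-miR-20a and hsa-miR-92a were also all above 0. Among the alternatives that could change it, the cluster's median stayed above that of all endogenous miRNAs except with normexp, where it was 0.33 below. The 6 measured members of the miR-106b-25 and miR-106a-363 clusters had a median of 0.09, from -0.02 for hsa-miR-93 to 0.45 for hsa-miR-363, and this median too lay below that of all endogenous miRNAs with normexp.

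In the miR-30 family 4 of 5 members were measured and 0 of 4 were above 0, where 68 of all 117 were. They ran from -0.33 ± 0.57 for hsa-miR-30c to -0.0027 ± 0.19 for hsa-miR-30b, and both of these were smaller than the spot SD. Their median of -0.21 lay above that of all endogenous miRNAs with normexp, with the scanner software's own total per miRNA and in the deposited table of log2 values. The miR-320 family with hsa-miR-484 had 4 measured members, also 0 of 4 above 0, from -0.27 ± 0.13 for hsa-miR-320a to -0.02 ± 0.08 for hsa-miR-320d. With 4 members each, these counts are descriptions only. The median of this list stayed below that of all endogenous miRNAs in the alternatives that could change it. Relative to that median it ranged from -0.54 with normexp to -0.09 with all spots kept.

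The let-7 family, which represses RAS and LIN28, had a median of 0.00 over 6 measured members, from -0.13 for hsa-let-7i to 0.22 for hsa-let-7g. The miR-23/miR-27/miR-24 clusters had a median of 0.02 over 5, the miR-29 family 0.02 over 3 with hsa-miR-29a at 0.26, and hsa-miR-26 with hsa-miR-101 0.01 over 3. The miR-200 family, which keeps cells epithelial, had a median of 0.05 over 5, with hsa-miR-200b at 0.30. The miR-130/miR-301/miR-454 family had a median of 0.04 over 5, with hsa-miR-301a at -0.19, and the miR-183/miR-96/miR-182 cluster 0.08 over 2. hsa-miR-148b at 0.02 and hsa-miR-125a-5p at 0.13 were the 1 measured member of their lists. Members of the miR-221/miR-222 and miR-181 lists were not measured on both arrays. Several of these medians depended on the processing. Relative to the median of all endogenous miRNAs, hsa-miR-26 with hsa-miR-101 lay at -0.02 as reported and at 1.40 and 1.39 with the software totals and in the deposited table. The miR-130/miR-301/miR-454 family lay at 0.02 as reported, at -0.26 with the software totals and in the deposited table and at 0.40 with normexp. With normexp the miR-29 family lay at -0.31, the miR-23/miR-27/miR-24 clusters at -0.44 and the miR-200 family at 0.30.

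Of the liver-enriched miRNAs, hsa-miR-192 (3478 units in miR-195 cells, 1351 in miR-497 cells and 3003 in non-treated cells) differed by 0.20 ± 0.23 and hsa-miR-194 (602, 165 and 596 units) by -0.30 ± 0.12. hsa-miR-122, the defining miRNA of hepatocytes, was not above background on any array, with -0.24, 5.62 and 3.62 units in the same order.

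**Figure D4:**
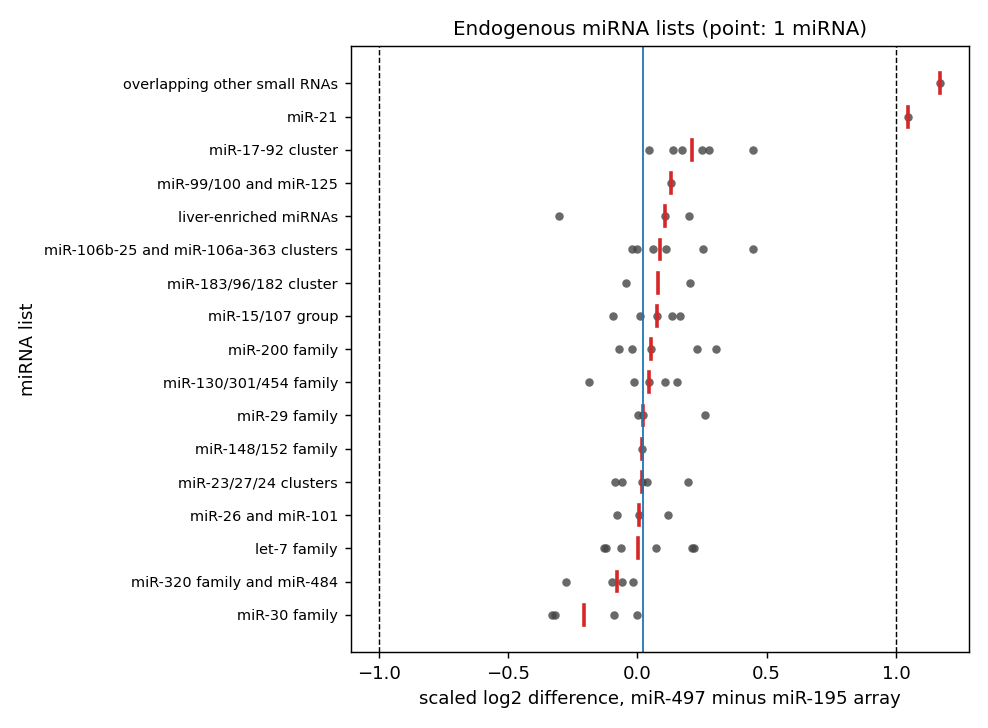
Each point is 1 endogenous miRNA of a list on a shared axis of scaled log2 difference (miR-497 minus miR-195 cells), with red bars for list medians, the blue line for the median of all 117 (0.02) and dashed lines for 2-fold. The miR-17/miR-92a cluster has the highest median among lists of 3 or more (0.21) and the miR-30 family the lowest (-0.21). With normexp each lay on the other side of the median of all endogenous miRNAs. The miR-30 family also lay on the other side with the software totals, which the deposited table holds as log2 values.

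Some features that did not enter the choice of arrays moved with the differences. The 29 brightest of the 117 had a median of 0.11, and the 3 dimmer groups of equal brightness ranks had medians of 0.02, -0.07 and 0.00 from dimmest to brightest, and the difference correlated with mean brightness with r = 0.29 and rho = 0.16 across the 117. Among the 98 of 117 with a RefSeq sequence, the difference correlated with GC content with r = -0.39 and rho = -0.28, and with length with r = 0.05. The 49 with GC content above the median had a median difference of -0.01, and the 49 at or below it 0.05. The median spot SD of a difference over the 117 was 0.17. The points share 1 array on each side, so these are descriptions. Of 12 passenger strands of endogenous miRNAs 10 were above 0, with a median of 0.14, against 58 of 105 others with a median of 0.02. Dim strands lower in miR-497 cells could have dropped below background there and out of the 12. Among 62 miRNAs with at least 2 probes above background on both arrays, the probes of one miRNA spanned a median of 0.12 in the difference, and in 43 of the 62 all probes had the same sign.

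Fewer miRNAs were detected on the dimmer array. Besides the 117 on both, 33 endogenous miRNAs were above background in miR-195 cells and not in miR-497 cells, and 1, hsa-miR-720, the other way round. The 33 read 23.7 to 78.3 units in miR-195 cells and held 0.731% of the endogenous signal there, and 30 of them were above background in non-treated cells too. Of these 33, 8 had a bound below 0 and 0 had a bound of 2-fold, the largest being those of hsa-miR-99b, hsa-miR-766 and hsa-miR-423-5p, with bounds of -0.45, -0.44 and -0.43 on the log2 scale. No name among the 33 was therefore shown to differ 2-fold.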

How the data were processed

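RNA from Ago2 immunoprecipitates of Hep G2 cells was measured on 3 one-colour Agilent human miRNA arrays, 1 for each group that the sample labels give. Per the file headers, the deposited spot values were intensities on a linear scale from Agilent Feature Extraction 10.7.1.1, background-subtracted and detrended for each array separately and not scaled to each other. The authors also deposited a table of log2 values made in GeneSpring with a floor on raw signals and a shift to the 75th percentile. It matched the log2 of the software's total per miRNA, with totals under 1 set to 1, for all 961 names, with a largest difference of 1.13e-06. Of its sample columns 0 were left unused. The 75th percentile of these totals was 0.1 on each array. The stated shift thus left the table's values not scaled between the arrays. The table served as an alternative, as did those totals after scaling. The build named by the file headers is hg19. RefSeq sequences (GRCh38.p14) were used for letters only, matched through hand-written older and newer names of the mature strands.

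Control spots and spots with an outlier flag were left out, which kept 14032 of 15024 spots in miR-195 cells and 14062 in miR-497 cells, and 0 spots were saturated. Spots were averaged per probe, and probes were summed per miRNA. A probe was above background when more than 50% of its spots carried the deposited flag, and a miRNA when at least 1 probe was. Where only 1 array measured a miRNA, its difference was computed against its own signal on the other array or the lowest signal above background there, whichever was higher, and is given as a bound. Signals were divided by the 75th percentile over the 183 probes above background on all 3 arrays. With 1 array per group the number of arrays limits the precision, and no test was run. The steps were tested on simulated data.

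The miRNAs named were both strands of each mimic, the miR-15/miR-107 group, the 10 endogenous miRNAs with the largest mean share, the 5 largest increases and 5 largest decreases, the 3 largest bounds in each direction, the 5 sequences most like each guide and up to 2 members of each list. The arrays compared, the lists and this rule were chosen with earlier results of these data known. Alternatives covered the scaling (also to the dmr control probes, taken as spike-ins), the background correction (normexp with an offset of 50, limma 3.58.1 in R 4.3.3), the summary of spots and probes, the detection rule, the names in the sum and the fold threshold. Analyses used Python 3.11.15 with numpy 2.4.6, pandas 2.3.3 and scipy 1.17.1.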

Additional observations from a re-analysis of the deposited data

Results flagged for a closer look

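A pair of viral names outside the human comparison had a value on the miR-195 array in the deposited table and none above the floor on the other arrays. ebv-miR-BART17-3p was listed at 10.50 on the log2 scale, although its 16 spots reached at most 21.2 intensity units there and 1 of them was above background. hsv1-miR-H6-3p was listed at 5.56, with 0 of its 16 spots above background and a highest spot of 20.4 units. By the detection rule used here, 0 of 88 viral names were above background on any array. The cause was not tested.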

How the results depend on the processing

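With 1 array per group no replicate could be left out. No paired analysis was possible because each group held 1 array. The direction of both guides and the order of their shares held under every alternative run, while sizes and counts of 2-fold differences depended on the processing. Another scaling factor shifts all differences equally, and the deposited table was in effect an unscaled alternative. Quantile normalization, normexp and the software totals also changed differences of single miRNAs by unequal amounts. The median endogenous difference, 0.02 as reported, was -0.82 with the 75th percentile over all probes, -1.54 without scaling, -1.53 with spike-in scaling, 0.46 with normexp, 0.14 with median scaling, -0.13 with the software totals, -1.44 in the deposited table and, in alternatives chosen after seeing the data, -0.42 when scaled to the endogenous sum and -0.14 when hsa-miR-21 was left out of that sum.

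The hsa-miR-195 difference was -9.48 with the percentile over all probes, -10.20 without scaling, -10.19 with spike-ins, -6.55 with normexp, -8.18 with the mean of log2 over probes and with the brightest probe, -9.19 with the software totals, -10.50 in the deposited table and -9.07 when scaled to the endogenous sum. The hsa-miR-497 difference was 8.16, 7.44, 7.45 and 6.93 under the first 4 of these, 8.35 with the software totals, 7.04 in the deposited table and 8.57 with the endogenous sum. The hsa-miR-195 share was 9.37% with normexp, 11.7% with the brightest probe and 12.2% with the software totals, and the hsa-miR-497 share was 3.20% with normexp and 4.75% with the software totals. The hsa-miR-195* share was 2.57%, 3.04% and 1.64%, and the hsa-miR-497* share 0.205%, 0.119% and 0.0816%, with normexp, the brightest probe and the software totals.

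The 2 endogenous miRNAs at least 2-fold higher became 0 with the percentile over all probes, without scaling, with spike-ins, at 3-fold and with the endogenous sum, 1 with quantile normalization, the mean of log2, all spots above background and the endogenous sum without hsa-miR-21, 7 with normexp, 13 with the software totals and 11 of 135 in the deposited table. The 0 at least 2-fold lower became 17 with the percentile over all probes, 114 without scaling and with spike-ins, and 105 in the deposited table. hsa-miR-21 turned to -0.52 without scaling, -0.51 with spike-ins and -0.47 in the deposited table, and hsa-miR-923_v12.0 to -0.39, -0.38 and -0.35. Relative to the median of all endogenous miRNAs hsa-miR-21 was between 0.89 and 1.13 higher, except at 0.08 with quantile normalization, which gives the brightest probes of both arrays one value, and 0.40 with normexp. The mean of log2 over probes gives no share, and it and the deposited table give no bounds, so those were not run. Dim miRNAs on the miR-497 array lay near its lowest signal above background, 19.1 units.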
